A study of Rattus norvegicus with 4 samples.

Results

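Epithelial salt transport sets how much fluid lies in the uterine lumen, and 10 genes of this process were described in the rat uterus before implantation. The genes were listed by function, and each was read from the probe set that the platform annotation pairs with that single symbol. All 10 had exactly 1 such probe set, among 18166 genes tested. They are Scnn1a, Scnn1b and Scnn1g for the epithelial sodium channel, Slc9a3 for a sodium-proton exchanger, Cftr, Slc26a4, Slc26a6 and Slc4a4 for chloride and bicarbonate transport, and Slc12a2 and Atp1b1 for salt entry and sodium extrusion.

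The study had 4 arrays of uterine RNA from pregnant Sprague Dawley rats of 10 to 12 weeks, taken on day 5 of pregnancy. In the treated group (2 arrays), rats were fed ormeloxifene, a drug that binds oestrogen receptors, blocks or mimics oestrogen depending on the tissue, and is taken as a contraceptive pill, at 1.25 mg per kg in gum acacia on day 1. The control group (2 arrays) had the vehicle alone. Both groups carry the replicate numbers 1 and 2. The labels call them biological replicates and do not say how many rats an array stands for, so p-values measure the spread between these arrays only. Values are log2 signals after quantile normalization, and a difference is ormeloxifene minus vehicle with its standard error.

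As background, fluid follows salt across the uterine epithelium. Chloride that enters a cell from the blood side through the cotransporter of Slc12a2 can leave into the lumen through the chloride channel of Cftr, and water follows it, which is the secretory arm. Sodium that enters from the lumen through the epithelial sodium channel, called ENaC, and is pumped out on the blood side by the sodium pump draws water the other way, which is the absorptive arm. In rodents, oestrogen is known for fluid secretion into the lumen, and progesterone for the absorption that closes the lumen around the time of implantation.

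The gene with the largest difference was Atp1b1, which encodes the beta-1 subunit of the sodium pump and lay 1.53-fold higher with ormeloxifene. The 3 ENaC genes lay between 1.11-fold and 1.24-fold lower, and Cftr lay 1.28-fold lower with arrays that overlapped between the groups. The other 5 genes differed by at most 0.13 on the log2 scale in either direction. By limma with Benjamini-Hochberg adjustment over all genes, 0 of the 10 passed an adjusted p of 0.05, as did 0% of all genes. At an unadjusted p under 0.05 stood 1 of the 10, Atp1b1, against 2.20% of all genes.

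The tissue label was checked against marker genes. The stromal transcription factors Hoxa10 and Hand2 had mean signals at the 92.9th and 89.7th percentile of all genes, the smooth muscle genes Tagln and Myh11 at the 99.8th and 99.2th, and the epithelial genes Epcam and Cdh1 at the 90.8th and 78.6th. Over all measured markers of a list, the median percentile was 97.4 for stroma and 98.0 for smooth muscle. It was 67.7 for epithelium, with the lowest epithelial marker at 45.2, and 22.4 for gland. Of 16 epithelial markers, 15 were measured, 7 higher and 8 lower with ormeloxifene, at a median of -0.02. Their summed signal was 11.64 on a log2 scale in both ormeloxifene arrays, while vehicle arrays gave 11.47 and 11.79, so the groups overlapped. Of the single epithelial markers, Elf3 lay lower (-0.48) and Ovol2 higher (0.35) without overlap, also on the values as deposited. Elf3 alone had an unadjusted p under 0.05 by limma (0.0492). All 8 measured smooth muscle markers lay higher, at a median of 0.34, and their summed signal was 13.84 and 13.68 with ormeloxifene against 13.56 and 13.40 with vehicle, without overlap. All 6 measured endothelial markers also lay higher, at a median of 0.18, with summed signals of 10.59 and 10.72 against 10.40 and 10.52, without overlap. On the values as deposited, the groups overlapped in each of these 6 genes. Stromal markers, 11 measured, lay 6 higher and 5 lower at a median of 0.07. Their sums of 14.40 and 14.28 overlapped 14.25 and 14.30 with vehicle. Of 12 leukocyte markers 8 lay higher, at a median of 0.09. Their sums of 12.25 and 12.30 did not overlap 11.99 and 12.05 with vehicle. These sums are weighted towards the brightest marker, Cd74, at 11.65 on both ormeloxifene arrays against 11.19 and 11.36 with vehicle. Gene by gene, Cd74, Csf1r and Cd3e lay higher without overlap, and Ms4a1 lower. On the values as deposited the groups of each of them overlapped, while Cd3g lay higher without overlap. The sums therefore do not show a difference of leukocyte markers as a set. Gland markers, 5 measured, had a median of -0.09. Whole uterus was measured, so fewer cells of a type and less RNA per cell cannot be told apart, and the part of cell makeup in the differences was not tested.

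Arrays with the same replicate number shared an identical deposited value at 488 and 551 probe sets, and the other 4 pairs of arrays at 0. Their correlation across genes was 0.980 for number 1 and 0.983 for number 2. It was 0.973 between the ormeloxifene arrays and 0.963 between the vehicle arrays. The limma fit used for the 10 genes and for the shares of all genes did not model the replicate number. The labels name no batch, but values within each number are therefore given beside the difference of each of the 10 genes.

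**Figure D1:**
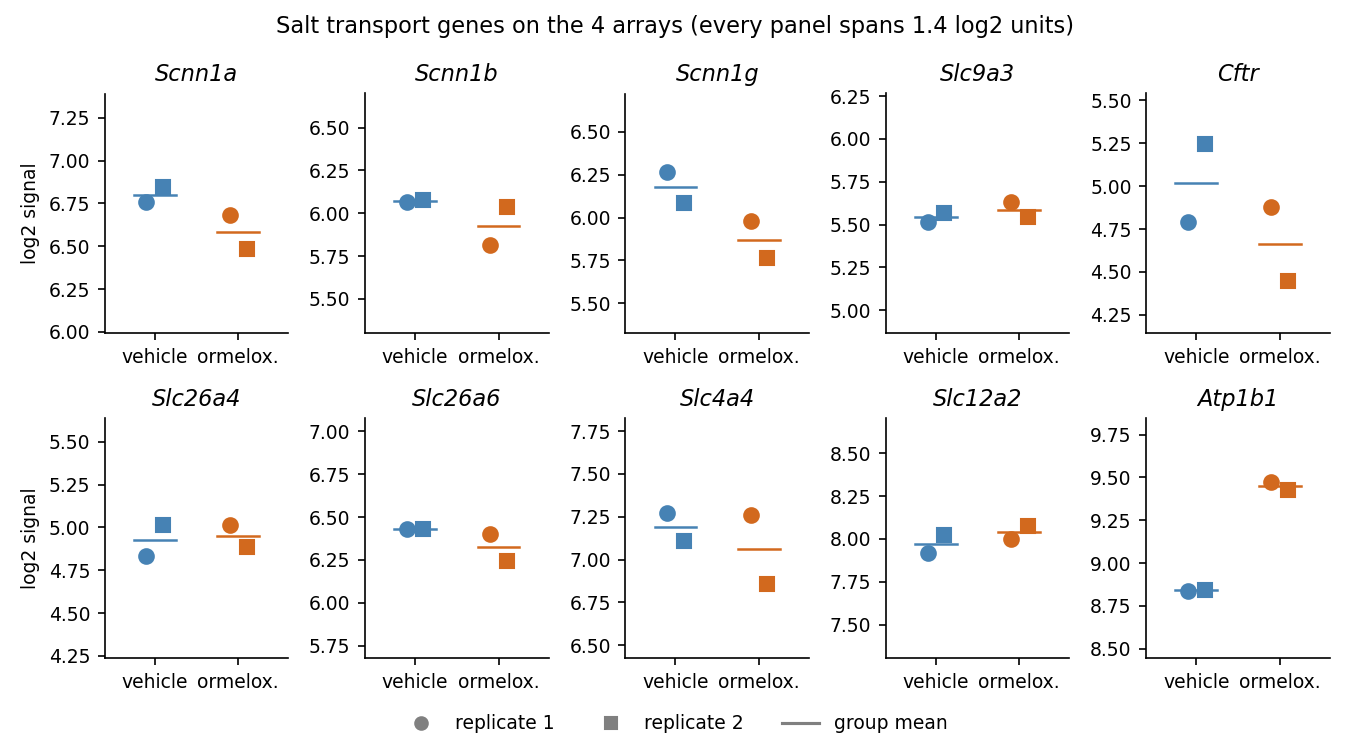
Log2 signal (vertical axis) of the 10 genes on each array by group, with circles for replicate 1, squares for replicate 2 and a line at the group mean; all panels span the same height. Atp1b1 has its ormeloxifene arrays at 9.48 and 9.42, well above 8.84 on both vehicle arrays, whereas the arrays of Cftr are interleaved.

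ENaC is built from alpha, beta and gamma subunits and is the gate through which sodium leaves the lumen. Scnn1a, the alpha subunit, without which the channel conducts little, read 6.68 and 6.48 on the ormeloxifene arrays and 6.76 and 6.85 on the vehicle arrays. Both ormeloxifene arrays were the lower ones, with a gap of 0.08 between the groups. The difference was -0.22 ± 0.21 (95% interval -0.71 to 0.27), with -0.08 within number 1 and -0.36 within number 2. Without ormeloxifene replicate 2 it was -0.12, and without ormeloxifene replicate 1 it was -0.32.

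Scnn1b, the beta subunit, read 5.81 and 6.04 with ormeloxifene and 6.07 and 6.08 with vehicle. The vehicle arrays were nearly equal, and ormeloxifene replicate 2 lay only 0.03 below them. Its difference of -0.15 ± 0.21 (-0.63 to 0.34) came to -0.25 within number 1 and -0.04 within number 2. Without ormeloxifene replicate 1 it was -0.03, and without ormeloxifene replicate 2 it was -0.26.

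Scnn1g, the gamma subunit, read 5.98 and 5.76 with ormeloxifene and 6.27 and 6.08 with vehicle. In each group replicate 1 was the brighter array, and the ormeloxifene array of each number lay below its vehicle array by a like amount, -0.29 within number 1 and -0.32 within number 2. The difference over all arrays was -0.30 ± 0.21 (-0.80 to 0.19; unadjusted p = 0.195 by limma). Without vehicle replicate 1 it was -0.21, and without ormeloxifene replicate 2 it was -0.20.

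The 3 subunits thus had the same sign, and in each the groups did not overlap after quantile normalization or with arrays centred on their medians. On the values as deposited, the groups of Scnn1a and Scnn1b overlapped and those of Scnn1g did not. Over the 10 genes, 4 lay lower with groups that did not overlap (the ENaC genes and Slc26a6), against 11.8% of all genes, and 1 lay higher (Atp1b1), against 13.9%. The count of 4 depended on scaling, since on the deposited values the lower genes without overlap were Scnn1g and Cftr. For no ENaC gene did the interval exclude 0. The intervals, which are not adjusted for the number of genes, reached 0.49 to 0.50 to either side of these 3 differences.

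Scnn1b and Scnn1g both lie on chromosome 1 in the GRCr8 annotation of the rat genome. The RefSeq promoter table held 7 of the 10 genes (Scnn1b, Scnn1g, Slc9a3, Cftr, Slc26a4, Slc4a4 and Slc12a2), each as 250 bases before to 50 after a start of transcription. The windows of the ENaC genes Scnn1b and Scnn1g are shown because their signals lay on the same side. That of Cftr is shown because it stands for the secretory arm. Scnn1b is at chr1:185861126-185861425 and Scnn1g at chr1:185735975-185736274, both on the plus strand, and Cftr at chr4:47527379-47527678, plus strand, in GRCr8. Capitals mark, on either strand, the oestrogen response element half-site (GGTCA), the half-site shared by progesterone and glucocorticoid receptors (AGAACA), the GC box (GGGCGG) and the half-site of the cyclic AMP response element (TGACG).
Scnn1b: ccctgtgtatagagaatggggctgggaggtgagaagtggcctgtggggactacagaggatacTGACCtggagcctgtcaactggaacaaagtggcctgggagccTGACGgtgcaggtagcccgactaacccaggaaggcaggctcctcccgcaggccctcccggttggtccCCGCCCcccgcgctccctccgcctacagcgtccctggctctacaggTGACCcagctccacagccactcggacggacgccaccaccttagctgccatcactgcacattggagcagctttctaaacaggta
Scnn1g: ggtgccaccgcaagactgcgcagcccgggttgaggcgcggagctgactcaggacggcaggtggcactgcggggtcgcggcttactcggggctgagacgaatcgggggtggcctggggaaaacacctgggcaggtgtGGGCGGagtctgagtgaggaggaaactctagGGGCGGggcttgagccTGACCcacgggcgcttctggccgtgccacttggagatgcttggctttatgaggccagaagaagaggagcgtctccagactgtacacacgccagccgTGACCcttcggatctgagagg
Cftr: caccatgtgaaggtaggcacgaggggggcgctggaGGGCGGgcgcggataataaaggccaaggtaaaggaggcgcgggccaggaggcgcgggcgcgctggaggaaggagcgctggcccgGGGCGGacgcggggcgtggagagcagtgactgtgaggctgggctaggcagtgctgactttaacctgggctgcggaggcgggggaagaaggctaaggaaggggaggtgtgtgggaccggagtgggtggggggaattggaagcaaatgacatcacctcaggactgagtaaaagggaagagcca

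No marked motif overlapped another in these windows. The oestrogen half-site stood in 2 of the 7 windows, those of Scnn1b and Scnn1g, with 2 matches in each, and in 40.5% of all 33469 promoters of the table. Counted from the first transcribed base as 0, the matches began at -188 and -33 in Scnn1b and at -67 and 29 in Scnn1g. GC boxes stood in 5 of the 7 windows and in 33.1% of all promoters, the cyclic AMP half-site in 2 (Scnn1b and Slc9a3) and in 21.2%, and the progesterone and glucocorticoid half-site in 0 and in 20.7%. These matches describe letters in the windows and say nothing of binding.

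The other route for sodium out of the lumen is the exchanger NHE3, encoded by Slc9a3, which trades sodium for protons. It read 5.63 and 5.55 with ormeloxifene and 5.52 and 5.57 with vehicle. All 4 arrays lay close together and the groups overlapped. The difference was 0.04 ± 0.20 (-0.43 to 0.52), with 0.11 within number 1 and -0.02 within number 2. It was 0.0029 without ormeloxifene replicate 1, 0.09 without ormeloxifene replicate 2, 0.02 without vehicle replicate 1 and 0.07 without vehicle replicate 2.

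Cftr encodes a chloride channel opened by cyclic AMP that also passes bicarbonate, and its probe set was dim, with a mean signal at the 16.6th percentile of all genes. It read 4.88 and 4.44 with ormeloxifene and 4.79 and 5.25 with vehicle. The lowest and the highest values were the replicate 2 arrays of the groups, and both replicate 1 arrays lay between them. The difference of -0.36 ± 0.26 (-0.96 to 0.24; unadjusted p = 0.204 by limma) was 0.09 within number 1 and -0.80 within number 2. It was -0.58 without ormeloxifene replicate 1 or vehicle replicate 1, -0.14 without ormeloxifene replicate 2 and -0.13 without vehicle replicate 2. The spread left within groups was 0.31 (SD), at the 74.2th percentile of all genes, whereas that of Atp1b1 was at the 1.16th.

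Both SLC26 genes encode anion exchangers. Slc26a4 encodes pendrin, which exchanges chloride for bicarbonate or iodide, and its probe set was also dim, at the 18.4th percentile. It read 5.02 and 4.89 with ormeloxifene and 4.83 and 5.02 with vehicle. The groups shared the same range, and the difference was 0.03 ± 0.21 (-0.46 to 0.51), with 0.18 within number 1 and -0.13 within number 2. Its sign turned without ormeloxifene replicate 1 (-0.04) and without vehicle replicate 1 (-0.07).

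Slc26a6, an exchanger of chloride for bicarbonate and oxalate, read 6.40 and 6.24 with ormeloxifene and 6.43 on both vehicle arrays. The ormeloxifene arrays were lower by a gap of 0.02, which was not kept on the deposited or the median-centred values. The difference was -0.11 ± 0.21 (-0.58 to 0.37), with -0.02 within number 1 and -0.19 within number 2. It was -0.03 without ormeloxifene replicate 2 and -0.19 without ormeloxifene replicate 1.

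Slc4a4 encodes a sodium-bicarbonate cotransporter that loads bicarbonate into the cell from the blood side. It read 7.26 and 6.86 with ormeloxifene and 7.27 and 7.11 with vehicle. Replicate 2 was the lower array in both groups, and both replicate 1 arrays were nearly equal. The difference was -0.13 ± 0.23 (-0.66 to 0.41), with -0.01 within number 1 and -0.25 within number 2. Leaving out ormeloxifene replicate 2 turned it to 0.07, and leaving out ormeloxifene replicate 1 gave -0.33. Without vehicle replicate 1 it was -0.05, and without vehicle replicate 2 it was -0.21.

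Slc12a2 encodes NKCC1, the cotransporter that brings sodium, potassium and chloride into the cell and so feeds chloride secretion. It read 8.00 and 8.08 with ormeloxifene and 7.92 and 8.02 with vehicle. Replicate 2 was the brighter array in both groups, and the groups overlapped. The difference was 0.07 ± 0.20 (-0.41 to 0.54), with 0.09 within number 1 and 0.05 within number 2. It was 0.03 without ormeloxifene replicate 2 and 0.02 without vehicle replicate 1, and 0.11 and 0.12 without the other array of each group.

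Atp1b1 encodes a beta subunit of the sodium pump, which the pump needs to reach the membrane. It read 9.48 and 9.42 with ormeloxifene and 8.84 on both vehicle arrays, as means 9.45 ± 0.04 and 8.84 ± 0.0040 (SD, n = 2 each). Both ormeloxifene arrays were higher, and the gap between the groups was 0.58. The difference was 0.61 ± 0.20 (0.14 to 1.08), or 1.53-fold with an interval from 1.10 to 2.11, and it was 0.64 within number 1 and 0.58 within number 2. Its unadjusted p by limma was 0.0176 and its adjusted p was 1.00. Among the 18166 genes it ranked 172 by difference towards higher and 138 by p.

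Under every scaling tried the difference of Atp1b1 lay between 0.59 and 0.67, the latter with the mean of the 15 epithelial markers made equal on all arrays. Its unadjusted p was above 0.05 on the values as deposited (0.0878) and when an array was left out, except for vehicle replicate 2: it was 0.0936 and 0.0714 without ormeloxifene replicate 1 and 2, 0.0502 without vehicle replicate 1 and 0.0483 without vehicle replicate 2. Making those markers equal takes the same number from all genes of an array. Every difference therefore moves higher by the same amount, and the shift is not specific to any gene. The 3 ENaC genes then lay at -0.16, -0.08 and -0.24 for Scnn1a, Scnn1b and Scnn1g, and their groups overlapped. Cftr was then -0.30.

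**Figure D2:**
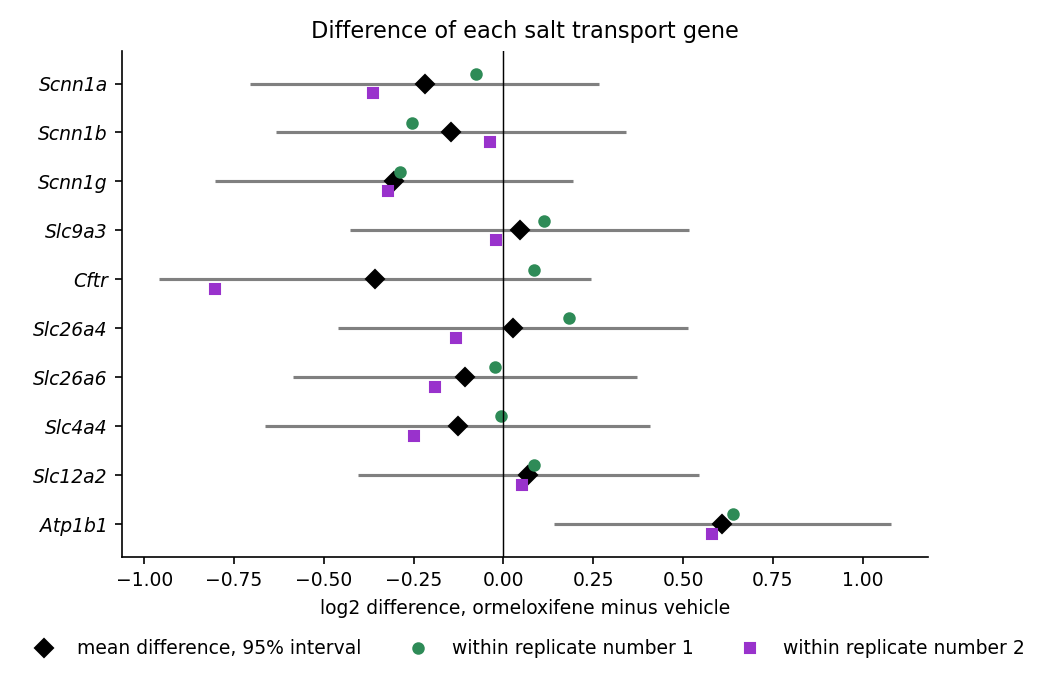
Log2 difference, ormeloxifene minus vehicle (horizontal axis), of each of the 10 genes: diamonds with 95% intervals over all 4 arrays, circles within replicate number 1 and squares within number 2. The interval lies wholly on 1 side of 0 for Atp1b1 alone, and the widest split between the numbers is that of Cftr, at 0.09 and -0.80.

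**Figure D3:**
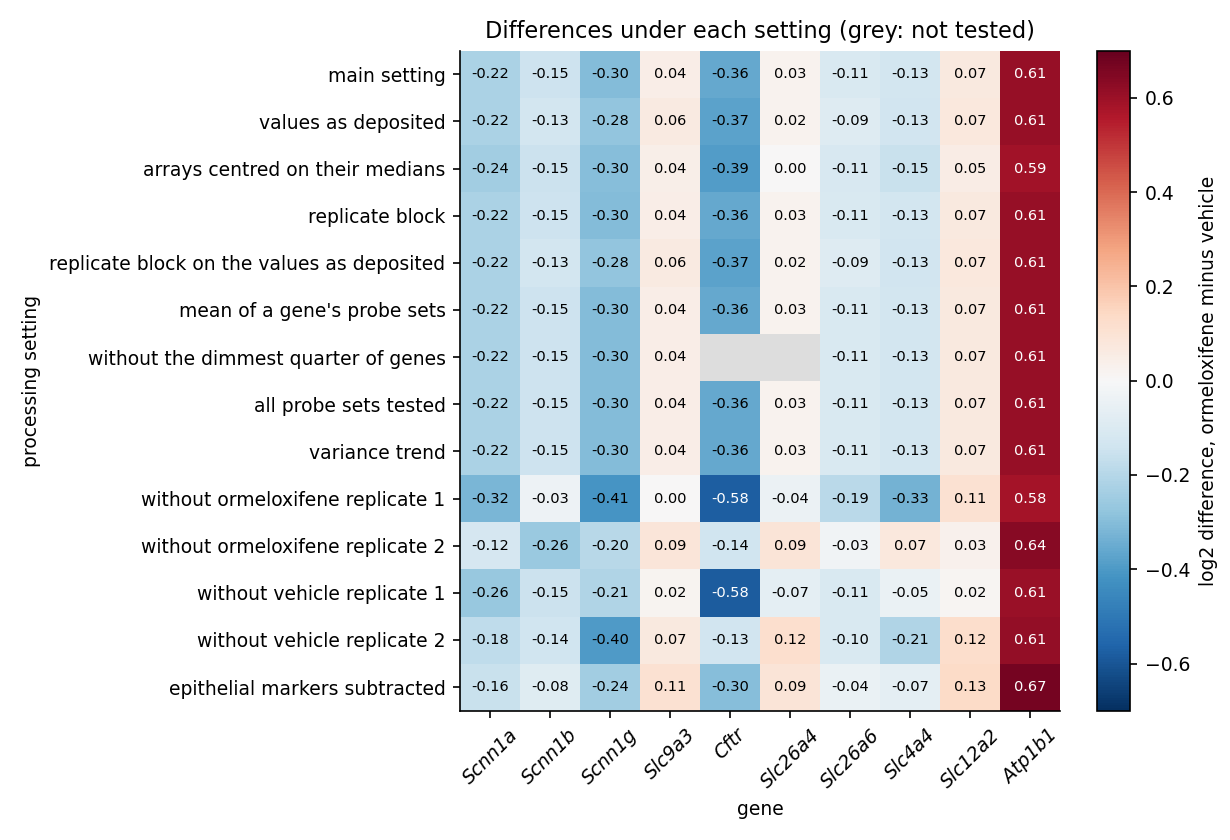
Log2 difference, ormeloxifene minus vehicle, of each gene (columns) under each processing setting (rows), coloured from blue (lower) to red (higher) with the value printed; grey cells were below the signal limit of that setting. Atp1b1 ranges from 0.58 to 0.67, and Cftr from -0.58 to -0.13.

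The other genes of the pathway were described as 7 lists, by counts and medians beside those of all genes, of which 9702 lay higher and 8464 lower at a median of 0.02. By limma, 0 of the 92 measured genes of the 7 lists passed the adjusted threshold, and 4 (4.35%) had an unadjusted p under 0.05, against 2.20% of all genes. Genes of a list not measured here were left out.

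ENaC activity is set by kinases, ubiquitin ligases, steroid signalling and proteases that cut the channel, and 18 of 19 such genes were measured. They had a median of 0.10, with 15 higher and 3 lower and with 1 at an unadjusted p under 0.05. The median was -0.02 without vehicle replicate 1. That gene was Tsc22d3, a glucocorticoid-induced leucine zipper protein, which read 6.95 and 6.99 with ormeloxifene and 6.50 and 6.47 with vehicle, a difference of 0.48 ± 0.20. Both of its ormeloxifene arrays were higher. Hsd11b2, the enzyme that inactivates glucocorticoids and so protects the mineralocorticoid receptor, differed by 0.50 ± 0.23, from 0.76 within number 1 to 0.24 within number 2. The membrane protease Tmprss4 differed by 0.26 ± 0.21 and the kinase Stk39, which acts on SLC12 cotransporters, by 0.26 ± 0.23.

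The list of other sodium pump genes held 10 measured of 13, 5 higher and 5 lower, with a median of -0.05. Beside the 0.61 of Atp1b1, Atp1b2, another beta subunit, differed by -0.11 ± 0.23 and Atp1b3 by 0.00 ± 0.21. The FXYD proteins, small regulators of the pump, of smallest p were Fxyd3 (-0.35 ± 0.24), Fxyd4 (-0.37 ± 0.28), Fxyd5 (-0.27 ± 0.23) and Fxyd6 (-0.17 ± 0.25). In these 4 the ormeloxifene array was the lower one within both numbers. After quantile normalization the groups overlapped in Fxyd4, Fxyd5 and Fxyd6 and not in Fxyd3. On the values as deposited they overlapped in Fxyd3, Fxyd4 and Fxyd5 and not in Fxyd6. With arrays centred on their medians they overlapped in all 4. In the other FXYD genes measured, Fxyd1 (0.09), Fxyd7 (0.07) and Fxyd2 (0.05), the ormeloxifene array was the higher one within both numbers.

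Other chloride channels and SLC26 transporters, 16 measured of 16, had 10 higher and 6 lower at a median of 0.02 (-0.073 without ormeloxifene replicate 1), with 0 at an unadjusted p under 0.05 by limma. Clca4, of a family that modulates calcium-activated chloride channels, differed by -0.40 ± 0.24, from -0.08 within number 1 to -0.72 within number 2. The voltage-gated chloride channel Clcn2 differed by 0.40 ± 0.29, and the transporters Slc26a8 and Slc26a7 by 0.29 ± 0.21 and -0.31 ± 0.23.

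Among 6 measured of 8 other SLC12 cotransporters, 2 lay higher and 4 lower, at a median of -0.06. Leaving out vehicle replicate 1 moved that median to -0.18, and leaving out vehicle replicate 2 moved it to 0.027. Slc12a1, the renal relative of Slc12a2, read 4.49 and 4.68 with ormeloxifene and 3.86 and 4.13 with vehicle, a difference of 0.59 ± 0.22 with an unadjusted p of 0.0274 by limma. Its groups did not overlap, and its probe set was dim, at the 9.69th percentile. The next by p were Slc12a8 (-0.21 ± 0.20), Slc12a7 (-0.10 ± 0.23) and Slc12a3 (0.13 ± 0.34).

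Of 14 other sodium-proton exchangers and proteins that anchor or regulate them, 11 were measured, 7 higher and 4 lower at a median of 0.06. Nherf1, a scaffold that ties NHE3 and CFTR to the cell cortex, read 8.55 and 8.33 with ormeloxifene and 7.76 and 8.16 with vehicle. Its groups did not overlap after quantile normalization but did on the values as deposited, and its difference of 0.48 ± 0.23 was 0.79 within number 1 and 0.17 within number 2. The exchanger cofactor Chp2 differed by 0.39 ± 0.20, the scaffold Pdzk1 by -0.44 ± 0.25 and ezrin (Ezr), which links scaffolds to actin, by 0.35 ± 0.25. The probe set of Pdzk1 was dim, at the 13.7th percentile, and its groups overlapped on the values as deposited. The median of this list was 0.22 without vehicle replicate 2.

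Bicarbonate supply rests on SLC4 transporters and carbonic anhydrases, which interconvert carbon dioxide and bicarbonate, and all 17 listed genes were measured. They lay 9 higher and 8 lower at a median of 0.07, with 1 in each direction at an unadjusted p under 0.05. Car4, a membrane-bound carbonic anhydrase, read 5.38 and 5.25 with ormeloxifene and 6.04 and 6.16 with vehicle. Both ormeloxifene arrays were lower, and the difference of -0.79 ± 0.21 was larger in size than that of any of the 10 genes; its unadjusted p by limma was 0.00562. Car14, another membrane-bound form, read 5.08 and 4.72 against 4.31 and 4.21, a difference of 0.64 ± 0.22 at a dim probe set (13.1th percentile). Car12 and Car2, a membrane-bound and a cytosolic form, differed by 0.35 ± 0.21 and -0.39 ± 0.24, each with groups that did not overlap, although those of Car2 overlapped on the values as deposited. The list's median turned to -0.06 without ormeloxifene replicate 1 and to -0.03 without ormeloxifene replicate 2.

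Genes of cyclic nucleotide and purine signalling, most of which act towards opening CFTR, 14 measured of 17, had 6 higher and 8 lower at a median of -0.03, which was 0.18 without vehicle replicate 1. The adenylyl cyclases Adcy3, Adcy7 and Adcy6 differed by 0.22 ± 0.23, 0.19 ± 0.22 and 0.17 ± 0.22, and Pde4d, a phosphodiesterase that degrades cyclic AMP, by -0.21 ± 0.25. At an unadjusted p under 0.05 by limma stood 0 of them.

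**Figure D4:**
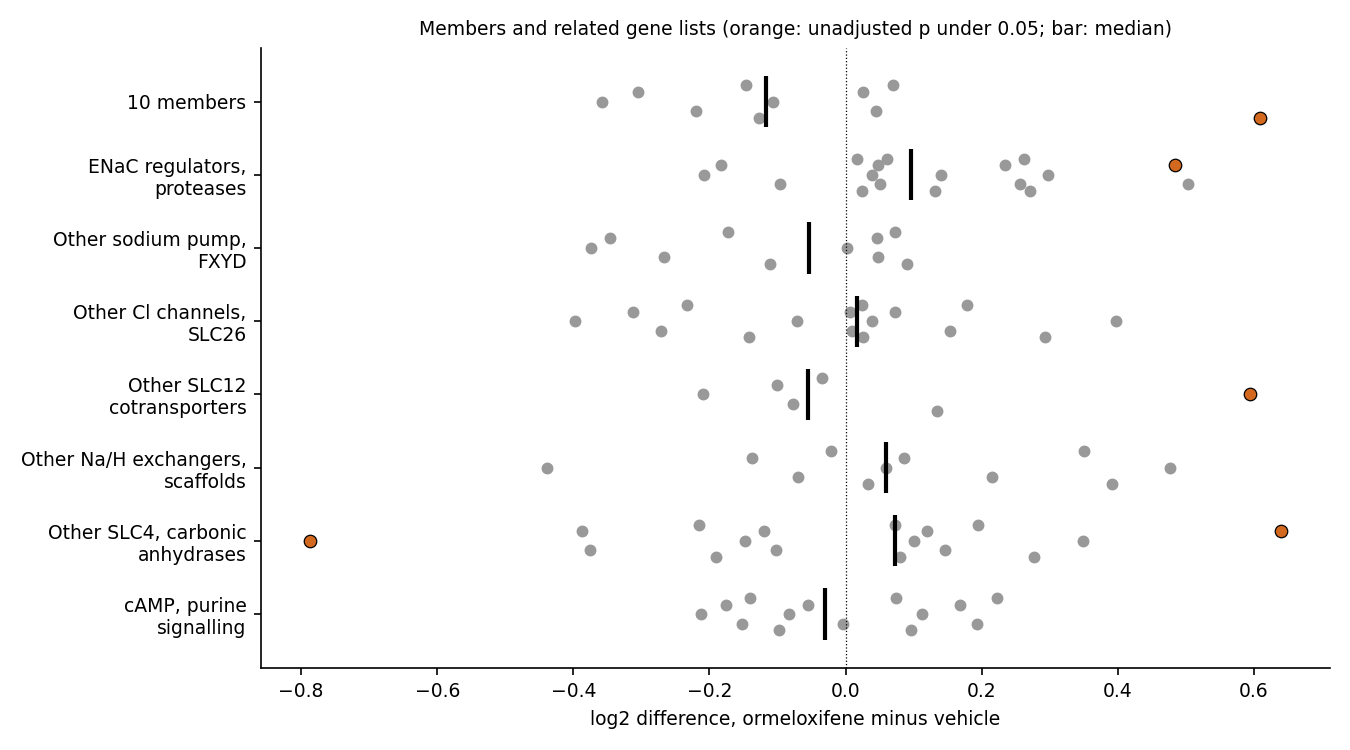
Log2 difference, ormeloxifene minus vehicle (horizontal axis), of each measured gene of the 10 members and of the 7 lists (rows), with a bar at the median and orange points at an unadjusted p under 0.05. Medians lie between -0.12 for the 10 genes and 0.10 for ENaC regulators, and Car4 at -0.79 is the lowest point.

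Likeness of pattern was measured as the root mean square difference between log2 values, each centred on the gene's own mean, over the 4 arrays. Nearest to Atp1b1 were the olfactory receptor gene Or4p22 (0.02), the esterase Iah1 (0.03) and Sfrp2, a secreted Wnt antagonist (0.04). Iah1 read 9.51 and 9.46 with ormeloxifene and 8.91 and 8.94 with vehicle. In all, 78 genes with established symbols, meaning no LOC, RGD or predicted-gene number, came within 0.1 of Atp1b1. Around Scnn1g there were 684 genes within 0.1, the nearest being Ywhaq, UST4r and Atf3 (0.01, 0.02 and 0.02). Around Cftr there were 47, the nearest being Mir377 (0.04), Dyrk3 (0.05) and C13h1orf105 (0.05). Some of these probe sets were dim, with mean signals at the 0.98th percentile for Mir377, the 2.36th for UST4r and the 14.3th for Dyrk3. The limit of 0.1 was not scaled to the size of a gene's own differences, so the counts do not rank the patterns by how common they are. With 4 arrays such likeness is a description only.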

How the data were processed

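The authors deposited 1 table of log2 signals for 36685 probe sets on 4 arrays. Per the submitters' processing notes it came from Affymetrix Expression Console; its version, the summary method and the genome build were not given in the sources used here, and the log2 scale was read from the values. Column medians ran from 5.67 to 5.93, so quantile normalization was applied over all probe sets. A single gene symbol was paired with 18511 probe sets; symbols were updated by gene number, and the brightest probe set of a gene was kept, leaving 18166 genes. Groups were compared with limma 3.58.1 in R 4.3.3 (lmFit and eBayes, no trend, 2-sided, 7.55 degrees of freedom after moderation), adjusted by Benjamini-Hochberg over all genes. An exact permutation test of 1 gene cannot go below p = 0.333 here. The number of arrays limits precision. The 10 genes and the lists were chosen with earlier results of these data known; from each list the 4 genes of smallest p were named, with Atp1b2, Atp1b3, Fxyd1, Fxyd2, Fxyd7 and the markers of the tissue check added after their values were seen. The fit was tested on simulated data with independent noise and with changes larger than the differences of the 10 genes. The simulation held no effect shared by a replicate number, so it does not cover that feature of these arrays. Alternatives were other scalings, the replicate number as a block, probe set averaging, a filter on dim genes, all probe sets, a variance trend, and leaving out each array.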

Additional observations from a re-analysis of the deposited data

How the results depend on the processing

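The limits of these results are those of 2 arrays against 2. The 10 genes kept their direction and stayed above the adjusted threshold under all alternatives, except that Slc26a4 ran from -0.066 to 0.119 and Slc4a4 from -0.330 to 0.074 when an array was left out. Cftr and Slc26a4 could not be tested without the dimmest 25% of genes. The replicate numbers pair nothing that the labels name; with the replicate block the smallest adjusted p among the 10 was 0.522, that of Atp1b1, and 0.290 with the replicate block on the values as deposited. The alternative that equalises epithelial markers was chosen after seeing the data, and it moves the difference of every gene by the same amount.

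Atp1b1 was the 1 gene of the 10 with an unadjusted p under 0.05; on the values as deposited there were 0, and 0 to 1 when an array was left out. Over all genes, where limma without a block called 0, the calls were 1 higher with arrays centred on their medians or probe sets averaged, 3 higher and 2 lower with the replicate block, 40 and 44 with that block on the values as deposited, 3 and 1 without the dimmest 25%, 2 and 1 with a variance trend, and 0 to 2 and 0 to 1 when an array was left out. At an unadjusted p under 0.05 stood 399 genes, 142 on the values as deposited, 1228 with the replicate block, 1163 with that block on deposited values, 888 of all probe sets, and 309 to 945 when an array was left out. The cause was not tested.

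Apart from leaving out an array, the list medians that moved by more than their spread between replicates were those of sodium pump genes (-0.11 with median centring, -0.11 without the dimmest 25%, 0.0075 with epithelial markers equalised) and of bicarbonate genes (-0.014 without the dimmest 25%, 0.14 with epithelial markers equalised). When an array was left out, medians ran from -0.02 to 0.20 for ENaC regulators, -0.098 to -0.036 for sodium pump genes, -0.073 to 0.062 for chloride channels, -0.18 to 0.027 for SLC12 cotransporters, 0.0056 to 0.22 for sodium-proton exchangers, -0.057 to 0.063 for bicarbonate genes, -0.11 to 0.18 for cyclic nucleotide and purine signalling and -0.18 to 0.09 for epithelial markers.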
